A study of Rattus norvegicus with 34 samples.

Results

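Isolated high windows are 1 kb windows of the rat genome that collected many methylated-DNA reads while both windows beside them collected almost none. They were chosen on chromosomes 1 to 20 by a total of at least 200 counts over 18 sperm libraries that was also at least 10 times the total of each adjacent window. The rule found 2400 such windows among 2618741 windows on these chromosomes, and 2782040 windows in all. It used the total over all 18 libraries and the totals of the neighbours, so the height and isolation of the windows are a description. It did not use the difference between groups or the spread between pools.

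The study profiled cauda epididymal sperm of outbred Hsd Sprague Dawley rats by methylated DNA immunoprecipitation sequencing (MeDIP-seq). Males of the founder generation (F0) were injected in puberty, on days 26, 29 and 32 of age, with 8.5 mg/kg of ifosfamide, a DNA-alkylating drug used in chemotherapy, or with 1.1 mL/kg of phosphate-buffered saline (PBS). The labels give 3 control and 5 ifosfamide founders but list 5 F0 control libraries, and they say that later generations received no ifosfamide. Counts were used for 6 F1 control pools (offspring of the PBS lineage), 6 F1 ifosfamide pools and 6 F2 ifosfamide pools (grandoffspring of the ifosfamide lineage), while the other 16 of 34 libraries were not analysed here.

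Sperm DNA of 3 to 4 males made up each F1 pool, from 25 control and 18 ifosfamide males, and that of 8 to 9 males each F2 ifosfamide pool. For 43 F2 ifosfamide males in the labels, 6 pools of that size would need some males more than once or smaller pools, and the labels do not settle this. The labels do not say how the males of a pool divide among litters or founders. The p-values therefore measure the spread between these pools. Somatic cells were removed by sonication and washing, and the sperm label could not be checked against marker genes because the windows carry no gene names. Libraries held 23336048 to 39440265 window counts, with 1.16 to 1.25 windows counted per read. F1 ifosfamide pools 1 and 2 stood apart from the other 4 pools of their group. Over the isolated windows, the chi-square statistic per degree of freedom that compares the counts of 2 pools was 1.62 between them and 3.35 to 4.96 between either and the other 4, with 1 expected from counting alone. F1 control pools 4 and 6 showed a similar pattern, with 1.68 between them and 2.34 to 5.13 between either and the rest of the control pools. Results are also given without both F1 ifosfamide pools 1 and 2. No fit left out control pools 4 and 6 together, only each alone.

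In MeDIP-seq an antibody against 5-methylcytosine pulls down single-stranded methylated fragments, and reads per window rise with methylation, with the density of methylated CpG sites and with the number of copies of the sequence. A genome assembly often holds 1 collapsed copy of a sequence that the animal carries many times, such as a satellite, a ribosomal or a transposon-derived repeat, and reads from all copies then pile up on that copy. Sequence beside it may be an assembly gap, sequence to which reads cannot be assigned, or DNA poor in CpG. Repeats are among the most heavily methylated DNA of mammalian germ cells, where methylation holds transposons silent. Window counts alone cannot tell these sources of signal apart. The genome sequence of the build used by the study, Rnor_6.0, was not used here, so no sequence or annotation is given for any window.

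The median isolated window held 548 counts over the 18 libraries, between quartiles of 343 and 982, and the median window of the same chromosomes held 125. Of the 2400 windows, 1082 held 200 to 499 counts, 736 held 500 to 999, 489 held 1000 to 4999 and 93 held 5000 or more. The highest held 198069. The total was a median of 13.1 times that of the higher neighbour, at least 20 times in 513 windows and at least 100 times in 117. Both neighbours were empty in all 18 libraries for 80 windows, 1 neighbour was empty for 272, and neither was empty for 2048.

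The dip around the windows reached past the adjacent kilobase that the rule used. The median total was 30 on either side, 61.5 and 56 at 2 kb, and 102 and 99 at 10 kb. At 10 kb all other windows of at least 200 counts, whatever their neighbours, had a median of 160. The window 10 kb to the left was empty in all libraries for 6.63% of isolated windows and 2.62% of the others, and that 10 kb to the right for 8.13% and 2.64%. Over all windows of these chromosomes the median total was 125 and 4.48% were empty. The rule did not use these distances directly, but it set the adjacent windows low, and its part in the wider dip was not tested. The adjacent window, which the rule did use, belonged to a run of at least 5 empty windows for 151 isolated windows (6.29%).

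**Figure D1:**
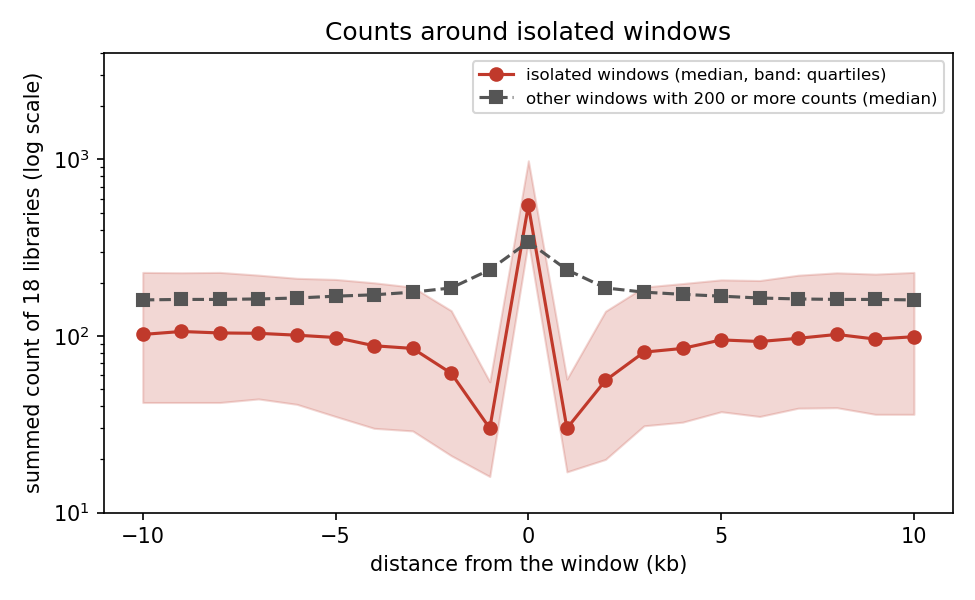
Median summed count of 18 libraries on a log scale (y axis) at each distance in kb from the window (x axis), for the 2400 isolated windows in red with quartiles as a band and for other windows of at least 200 counts as grey squares. The red line falls from 548 at the centre to 30 at 1 kb and returns to about 100 at 10 kb, below the grey line throughout except at the centre.

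At the edges of the rule, chr7:49663001-49664000 was inside with 200 counts beside neighbours of 17 and 14, and chr1:28781001-28782000 was outside with 199 counts beside 0 and 3. For the ratio, chr1:9570001-9571000 was inside at exactly 10 times its higher neighbour (280 against 28), and chr7:119587001-119588000 was outside with 2769 counts against 277. Applied to one library at a time, the 10-fold isolation held in a median of 12 of the 18 libraries, in all 18 for 305 windows, in at least 9 for 1998 and in 2 at the lowest. These counts are part of the sums that chose the windows, so they are a description. Applied to the 6 pools of each group alone, with a total of at least 67, it found 2724 windows in F1 control pools, 2227 in F1 ifosfamide pools and 3256 in F2 ifosfamide pools, and 1247 of the 2400 windows were found in all 3.

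Isolated windows were spread over all 20 chromosomes at 0.916 per 1000 windows, from 0.533 on chromosome 10 to 1.41 on chromosome 20. The median distance to the nearest other isolated window was 315 kb, and 80 windows had another within 10 kb. The densest megabase, chr1:180000001-181000000, held 15, chr1:55000001-56000000 held 10 and chr19:28000001-29000000 held 9.

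The highest window stood between empty neighbours. This window, chr1:180893001-180894000 in the densest megabase, held 198069 counts between 2 empty neighbours, 6.54% of all counts in isolated windows, and was the seventh highest of all windows of the genome. Its level, on the scale of library-size-scaled counts after trimmed-mean correction (CPM), was 301 to 401 CPM with a median of 381 in F1 control pools, 322 to 408 with a median of 383 in F1 ifosfamide pools, and 291 to 376 with a median of 328 in F2 ifosfamide pools. The 3 groups overlapped almost completely. In edgeR's quasi-likelihood test the log2 fold change of F1 ifosfamide against F1 control was -0.01 (SE 0.15, adjusted p = 0.997), and that of F2 against F1 ifosfamide was -0.15 (SE 0.14, adjusted p = 0.626).

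The next in height, chr13:33508001-33509000, held 60039 counts beside 0 and 510. Its median was 112 CPM in F1 control, 105 in F1 ifosfamide and 103 in F2 ifosfamide pools, with overlapping ranges. The window chr20:40913001-40914000 held 37900 counts beside 0 and 262, with medians of 62.8, 66.7 and 73.1 CPM and again overlapping ranges. None of these 3 windows was called in any comparison. The other 4 windows that stood highest above empty neighbours on both sides were not called in any comparison either. They were chr1:180573001-180574000 (8168 counts), chr1:11922001-11923000 (7069), chr1:181215001-181216000 (6207) and chr14:94569001-94570000 (5999). Their log2 fold changes of F1 ifosfamide against F1 control were -0.45, 0.08, -0.32 and 0.02. The edgeR unadjusted p was 0.000544 for the first and 0.0125 for the third. For F2 against F1 ifosfamide the first had a log2 fold change of 0.34 (edgeR unadjusted p = 0.00489).

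Other windows among the highest were called. The window chr1:36361001-36362000 held 56549 counts beside neighbours of 22 and 70. It ranged from 89.6 to 156 CPM with a median of 109 in F1 control pools, from 67.2 to 84.9 with a median of 74.6 in F1 ifosfamide pools, and from 104 to 129 with a median of 119 in F2 ifosfamide pools. Every F1 ifosfamide pool lay below every pool of the other groups. The log2 fold change against F1 control was -0.67 (SE 0.14, edgeR adjusted p = 0.0225) and that of F2 against F1 ifosfamide was 0.63 (SE 0.12, edgeR adjusted p = 0.00117). The first of these calls was lost without F1 control pool 4 (log2 fold change -0.58) or pool 6 (-0.58), or without F1 ifosfamide pool 3 (-0.64) or pool 6 (-0.66).

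The window chr15:78122001-78123000 held 36550 counts beside 45 and 190. It ranged from 45.0 to 116 CPM with a median of 76.3 in F1 control pools, from 29.7 to 54.2 with a median of 39.1 in F1 ifosfamide pools, and from 65.1 to 98.7 with a median of 78.6 in F2 ifosfamide pools. Control pools 4 and 6 were highest at 116 and 115 CPM, and control pool 1, at 45.0, fell among the F1 ifosfamide pools, none of which reached an F2 pool. The log2 fold change was -0.98 against F1 control (SE 0.15, edgeR adjusted p = 0.000323) and 0.92 for F2 against F1 ifosfamide (SE 0.13, edgeR adjusted p = 1.7e-06).

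Together the isolated windows took 0.549% of all window counts. Their share of a library ranged from 0.483% to 0.653% in F1 control pools (mean 0.580% ± 0.0634, SD, n = 6), from 0.450% to 0.529% in F1 ifosfamide pools (0.486% ± 0.0257, SD, n = 6) and from 0.556% to 0.618% in F2 ifosfamide pools (0.592% ± 0.0271, SD, n = 6). All 6 F1 ifosfamide pools lay below all 6 F2 ifosfamide pools. Control pool 1, at 0.483%, lay within the F1 ifosfamide range, and pools 4 and 6, at 0.653% and 0.639%, lay above every other library. Without the highest window the group means were 0.543%, 0.449% and 0.559%. The mean number of windows counted per read was 1.16 to 1.22 in F1 control, 1.17 to 1.25 in F1 ifosfamide and 1.16 to 1.23 in F2 ifosfamide pools, and its part in these shares was not tested.

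**Figure D2:**
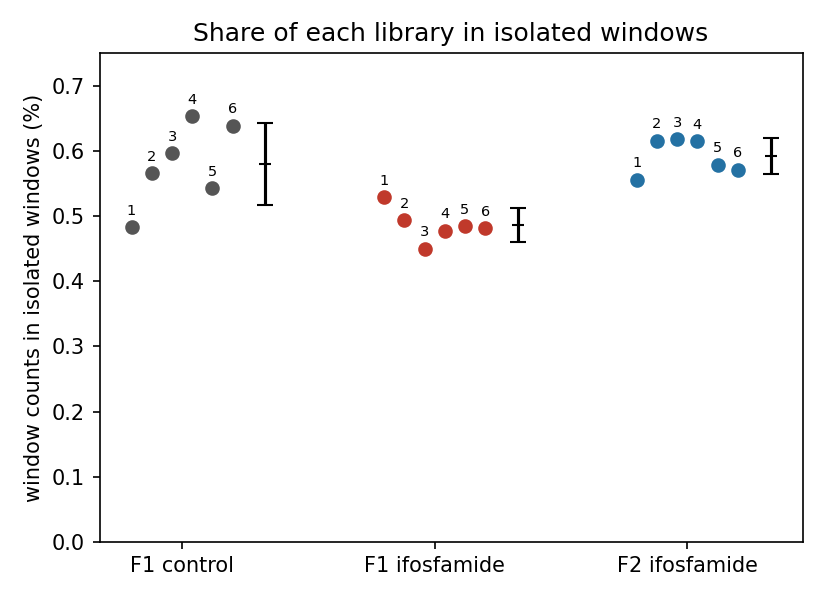
Percent of each library's window counts that fell in the 2400 isolated windows (y axis, from 0), 1 numbered point per pool in each group (x axis), with mean and SD over 6 pools as a bar. The F1 ifosfamide pools, at 0.450% to 0.529%, lie below all F2 ifosfamide pools, while the F1 control pools spread from 0.483% to 0.653%.

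Pools of one group differed more at isolated windows than at other windows above the same minimum total. The other windows here leave out those that were 10 times only 1 neighbour. Among windows of at least 1000 counts, the median coefficient of variation between pools was 21.5% in F1 control, 19.3% in F1 ifosfamide and 14.8% in F2 ifosfamide pools for isolated windows, against 14.6%, 15.4% and 13.0% for the others. Over pairs of pools of one group, the chi-square per degree of freedom was 1.42 to 5.13 in F1 control, 1.36 to 4.96 in F1 ifosfamide and 1.23 to 2.89 in F2 ifosfamide pools for isolated windows. For other windows of at least 200 counts it was 1.10 to 1.36, 1.08 to 1.78 and 1.05 to 1.27. This statistic grows with the count, and the median total was 548 for isolated windows and 337 for the others. Pools of the F2 ifosfamide group, which hold more males each, were the least spread by both measures. In a fit of all 18 pools the median edgeR dispersion of isolated windows was 0.0112, a biological coefficient of variation of 10.6%, against 9.85% for all tested windows, and 67.9% of isolated windows exceeded the median of all. Within classes of height the difference was largest between 1000 and 4999 counts. At 5000 or more counts this coefficient was 13.3% for isolated windows, 13.0% for windows 10 times only 1 neighbour and 12.6% for the others. Between 1000 and 4999 counts it was 12.3%, 11.1% and 10.6%. It was 10.4%, 10.2% and 10.0% between 500 and 999 counts, and 9.87%, 9.69% and 9.56% between 200 and 499. The median squared coefficient of variation minus its counting part was higher for isolated windows in every class. From the lowest class to the highest it was 0.0116, 0.0125, 0.0249 and 0.0248 for isolated windows, and 0.00658, 0.00767, 0.00815 and 0.0159 for the others.

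Much of this spread was shared between windows. After the group mean of each window was removed, the first principal component of the 582 isolated windows of at least 1000 counts held 51.9% of the variance between pools. That of the 35913 windows of at least 1000 counts that were 10 times neither neighbour held 22.2%. Of the isolated windows 93 held 5000 or more counts, and of the 35913 only 484 did. The part of height in these shares was not tested. The mean correlation between 2 windows over the 18 pools was 0.232 and 0.0247, respectively. These correlations are descriptive, since all windows share the same 18 libraries and their depths. On the log2 scale F1 control pool 1 deviated from the mean of its group by -0.36, averaged over these windows, and control pools 4 and 6 by 0.21 and 0.18. F1 ifosfamide pool 1 deviated by 0.22 and pool 3 by -0.17, and F2 ifosfamide pool 1 by -0.16. Over all 2400 isolated windows the first component held 26.2% and the mean correlation was 0.0567. The isolated windows of at least 1000 counts thus shared part of their variation between pools, and they are not independent measurements.

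Some windows had spread of their own. The widest was chr14:106913001-106914000 (3936 counts, biological coefficient of variation 23.6%). It held 0.757 CPM in F1 ifosfamide pool 2 and 5.86 to 11.7 in the other 5 pools of the group. F1 control pools held 4.80 to 10.97 CPM with a median of 7.52, and F2 ifosfamide pools 3.17 to 12.3 with a median of 6.95. The groups overlapped and no comparison called it. At chr3:64210001-64211000 (5374 counts) F1 ifosfamide pool 4 held 1.74 CPM and the other 5 pools 6.15 to 11.7. Its call for F2 against F1 ifosfamide, a log2 fold change of 0.54 (SE 0.16, edgeR adjusted p = 0.0457), was lost in 11 of 21 alternative fits, DESeq2 (0.55) and the fit without that pool (0.33) among them. At chr3:102594001-102595000 (1215 counts), F1 ifosfamide pools ranged from 0.909 to 5.15 CPM and no comparison called it.

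The windows with the lowest edgeR dispersion were all near the minimum total. They were chr6:19183001-19184000 (226 counts), chr2:214548001-214549000 (225), chr7:50614001-50615000 (212), chr13:65464001-65465000 (245) and chr9:7503001-7504000 (241), with biological coefficients of variation of 4.08% to 5.26%. That estimate leaves out counting noise. Their coefficients of variation between pools of a group, counting included, were 6.06% to 24.2%. The window chr7:50614001-50615000 ranged from 0.431 to 0.556 CPM in F1 control and from 0.200 to 0.348 in F1 ifosfamide pools. Those ranges did not overlap, but its log2 fold change of -0.84 (SE 0.25) had an edgeR adjusted p of 0.292.

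F1 ifosfamide sperm were compared with F1 control sperm to ask what differs in the first generation after the exposure. At an adjusted p below 0.05, 96 of 2399 tested isolated windows were lower in F1 ifosfamide pools (4.00%) and none was higher. Over all 1043656 tested windows, 0.0535% were called lower and 0.00489% higher. At an unadjusted p below 0.05, 41 isolated windows were higher and 522 lower in edgeR. Of 804203 tested windows of at least 200 counts that were 10 times neither neighbour, 26020 were higher and 28661 lower at that p. DESeq2 called 86 isolated windows lower and none higher but gave no adjusted p for 1791 of the 2399. Over the genome DESeq2 called 319 windows lower and 14 higher. The 96 windows called in edgeR were lower by a median of 0.71 on the log2 scale, from 0.58 to 1.73, and lay on all 20 chromosomes. They were 17.2% of the 558 windows called lower in the genome. All 6 F1 ifosfamide pools lay below all 6 control pools in 58 isolated windows (2.42%), against 0.168% of all tested windows, and 43 of these 58 were also called. The median log2 fold change over the tested isolated windows was -0.13, with 71.5% below 0, and over all tested windows it was 0.00, with 49.7% below 0.

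The number called depended on single pools, in the genome as in the isolated windows. Of the windows called lower in the genome, isolated windows were 190 of 1932 without control pool 1, 25 of 106 without pool 4 and 24 of 142 without pool 6. They were 193 of 1498 without F1 ifosfamide pool 1, 30 of 115 without pool 3 and 49 of 235 without pool 6. Without F1 ifosfamide pools 1 and 2 together 272 isolated windows were called, and the 269 lower ones were among 3415 in the genome. In these fits at most 3 calls were higher, and no window called both with and without the pools changed its direction. Of 2397 isolated windows with a p-value in the authors' deposited table, 51 passed 0.05 after adjustment, all lower in F1 ifosfamide (2.13%), among 223 of 992165 windows (0.0225%).

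Calls rose with the height of the window. Between 200 and 499 counts 2 of 1081 tested isolated windows were called lower, between 500 and 999 counts 5 of 736, between 1000 and 4999 counts 47 of 489 (9.61%), and at 5000 or more 42 of 93 (45.2%). Among windows of 5000 or more counts that were 10 times only 1 neighbour, 27 of 262 were called lower (10.3%) and 1 higher. Among the remaining windows of that height, 5 of 484 were lower (1.03%) and 15 higher. Windows of this height but with different surroundings thus had different shares of calls, and the difference between the classes was not tested. The median log2 fold changes of the 4 classes of isolated windows, from the lowest counts to the highest, were -0.11, -0.08, -0.27 and -0.55. The part of depth in the rise of the calls was not tested.

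For the 93 isolated windows of 5000 or more counts, the median log2 level of a pool against the mean of all 18 was -0.25 to 0.49 in F1 control pools (mean 0.12 ± 0.28, SD, n = 6). It was -0.64 to -0.29 in F1 ifosfamide pools (-0.43 ± 0.13, SD, n = 6) and -0.02 to 0.28 in F2 ifosfamide pools (0.16 ± 0.10, SD, n = 6). At this height no F1 ifosfamide pool reached the lowest control pool or the lowest F2 pool. For windows of 200 to 499 counts the means were 0.01 in F1 control, -0.09 in F1 ifosfamide and 0.03 in F2 ifosfamide pools, and F1 control and F1 ifosfamide pools overlapped.

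**Figure D3:**
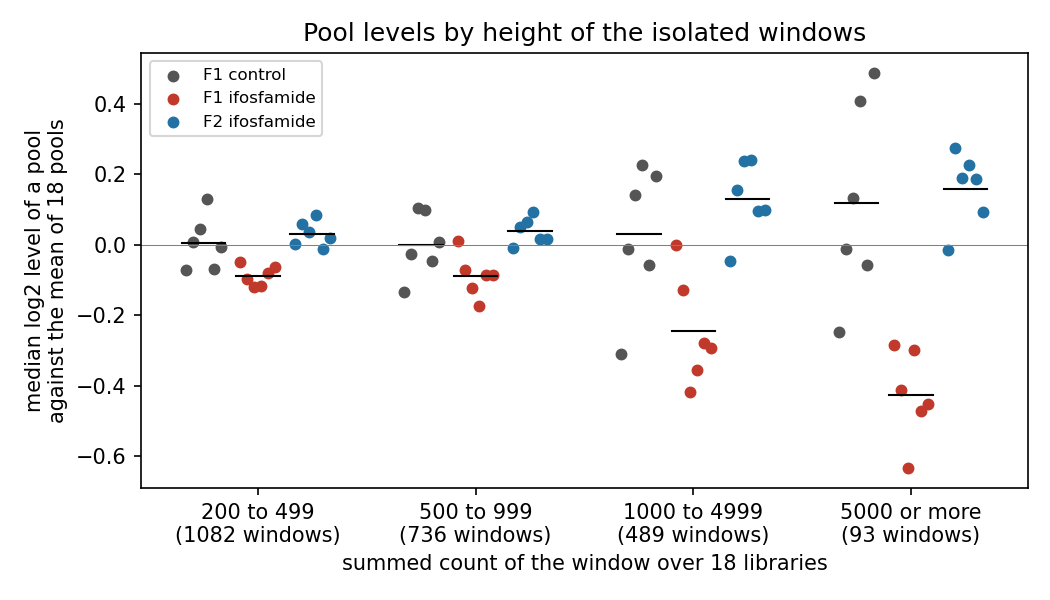
Median log2 level of each pool against the mean of 18 pools (y axis) for isolated windows in 4 classes of summed count (x axis, with the number of windows), 1 point per pool coloured by group and the group mean as a line. The F1 ifosfamide pools fall from a mean of -0.09 in the lowest class to -0.43 in the highest, where they lie below every control and F2 pool.

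The calls also fell unevenly over isolated windows with and without empty neighbours. Of the 520 isolated windows of at least 1000 counts with no empty neighbour, 89 were lower in F1 ifosfamide pools (17.1%) in edgeR and 84 in DESeq2, and their median log2 fold change was -0.31. Of the 18 with a pair of empty neighbours none was called in edgeR, 4 were lower at an unadjusted p below 0.05 and 1 was called in DESeq2, with a median of -0.13. Of the 44 with 1 empty neighbour none was called in edgeR, 15 were lower at an unadjusted p below 0.05 and 1 was called in DESeq2, with a median of -0.19. Without F1 ifosfamide pools 1 and 2 the calls lower were 219, 0 and 3 in the same order. None of the 15 windows in the densest megabase of chromosome 1 was called in edgeR, 8 were lower at an unadjusted p below 0.05 and 1 was called in DESeq2. This split was chosen after the values were seen, and the difference between its classes was not tested.

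Among the windows called lower with the smallest p, chr14:54147001-54148000 (6831 counts beside 3 and 80) had the largest fold change among those of at least 1000 counts. It ranged from 4.31 to 19.9 CPM with a median of 13.6 in F1 control pools, from 3.43 to 9.42 with a median of 5.46 in F1 ifosfamide pools, and from 11.7 to 24.1 with a median of 21.1 in F2 ifosfamide pools. The F1 groups overlapped through control pool 1, and every F2 pool lay above every F1 ifosfamide pool. The log2 fold change was -1.23 against F1 control (SE 0.17, edgeR adjusted p = 6.04e-05), a call lost in DESeq2, and 1.77 for F2 against F1 ifosfamide (SE 0.14, edgeR adjusted p = 2.7e-16).

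The window chr2:127567001-127568000 (5700 counts beside 164 and 134) ranged from 8.02 to 19.0 CPM with a median of 10.5 in F1 control pools. It ranged from 5.27 to 7.88 with a median of 6.62 in F1 ifosfamide pools and from 10.8 to 14.9 with a median of 12.4 in F2 ifosfamide pools. All F1 ifosfamide pools were below all others. The log2 fold changes were -0.94 (SE 0.14, edgeR adjusted p = 0.00023) against F1 control and 0.93 (SE 0.11, edgeR adjusted p = 8.65e-08) for F2 against F1 ifosfamide.

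The window chr12:49407001-49408000 (3125 counts beside 46 and 36) showed the same order. It held 4.93 to 9.60 CPM with a median of 5.74 in F1 control, 2.15 to 4.44 with a median of 3.69 in F1 ifosfamide and 5.53 to 8.54 with a median of 7.40 in F2 ifosfamide pools. The fold change on the log2 scale was -0.96 (SE 0.14, edgeR adjusted p = 0.00023) against F1 control and 1.06 (SE 0.13, edgeR adjusted p = 3.05e-08) for F2 against F1 ifosfamide. No F1 ifosfamide pool overlapped either of the other groups.

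The window chr7:104099001-104100000 (2415 counts beside 52 and 36) held 3.60 to 7.20 CPM with a median of 4.61 in F1 control, 2.16 to 3.31 with a median of 2.77 in F1 ifosfamide and 4.49 to 6.21 with a median of 5.12 in F2 ifosfamide pools. The F1 ifosfamide pools again lay below all others. Its log2 fold change was -0.90 (SE 0.14, edgeR adjusted p = 0.000306) against F1 control. At chr15:15211001-15212000 (4701 counts beside 201 and 121) the ranges were 8.02 to 13.3, 4.57 to 6.72 and 8.84 to 11.8 CPM in the same order of groups, and its log2 fold change was -0.81 (SE 0.13, edgeR adjusted p = 0.000582). In these 4 windows control pools 4 and 6 were the highest of all 18 pools and control pool 1 was the lowest of its group.

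Another 2 called windows, both on chromosome 10, were nearly equal in height. The windows chr10:112120001-112121000 (1667 counts beside 18 and 130) and chr10:111855001-111856000 (1663 counts beside 23 and 124) ranged from 2.00 to 5.74 and 1.88 to 5.79 CPM in F1 control pools, and from 1.31 to 2.11 and 1.47 to 2.35 in F1 ifosfamide pools. Both overlapped the F1 ifosfamide range only through control pool 1. Their log2 fold changes against F1 control were -1.13 (SE 0.16, edgeR adjusted p = 6.04e-05) and -1.06 (SE 0.15, edgeR adjusted p = 0.00013).

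At chr7:99152001-99153000 (2812 counts) the ranges were 3.91 to 9.34 CPM in F1 control and 2.46 to 4.37 in F1 ifosfamide pools, overlapping through control pool 1, with a log2 fold change of -1.001 (SE 0.14, edgeR adjusted p = 0.000109). The largest fold change of all called windows was at a low one, chr16:39108001-39109000 (621 counts beside 23 and 27). It ranged from 0.431 to 2.61 CPM with a median of 1.55 in F1 control, from 0.139 to 0.869 with a median of 0.479 in F1 ifosfamide and from 0.438 to 2.76 with a median of 1.19 in F2 ifosfamide pools. All 3 groups overlapped widely. Its log2 fold change against F1 control was -1.73 (SE 0.25, edgeR adjusted p = 0.00013), and with the number of windows counted per read as a covariate it was -0.82 and no longer called. This window was among the 5 with the highest dispersion (biological coefficient of variation 23.0%). The authors' deposited edgeR result did not call it (adjusted p = 0.0923).

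**Figure D4:**
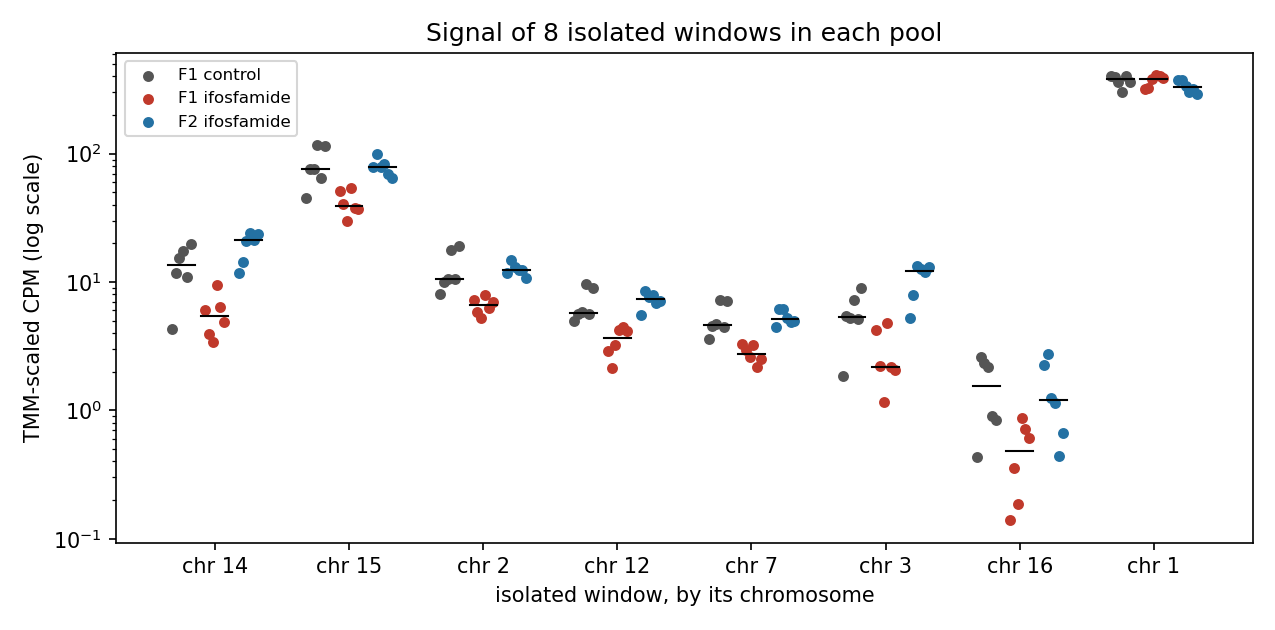
Level in TMM-scaled CPM on a log axis (y axis) of 8 isolated windows, each named by its chromosome (x axis), 1 point per pool coloured by group and the group median as a line. In the windows on chromosomes 2, 12 and 7 all F1 ifosfamide pools lie below the pools of both other groups, and in the highest window, on chromosome 1 at 291 to 408 CPM, the 3 groups overlap.

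F2 ifosfamide sperm were compared with the same 6 F1 control pools, so lineage and generation differ together in this comparison and its values are not independent of the first. Of 2379 tested isolated windows 2 were higher in F2 ifosfamide pools (0.0841%) and none was lower, while 0.016% of all 919249 tested windows were higher and 0.011% lower. At an unadjusted p below 0.05 edgeR gave 221 higher and 127 lower isolated windows. Of 783357 tested windows of at least 200 counts that were 10 times neither neighbour, 33753 were higher and 38442 lower at that p. DESeq2 called no isolated window but gave no adjusted p for 1392 of the 2379. Over the genome DESeq2 called 20 windows higher and 7 lower. All 6 F2 pools lay above all 6 control pools in 7 isolated windows (0.294%) and below them in 3 (0.126%), against 0.236% of all tested windows in either direction. The median log2 fold change was 0.03 over the isolated windows and 0.00 over all tested windows. In the 93 windows of 5000 or more counts the median was also 0.00, none was called in edgeR, and at an unadjusted p below 0.05 7 were higher and 2 lower. The number of calls was 17 without F2 ifosfamide pool 1, 9 without control pool 4, 7 without control pool 6 and 1 without control pool 2 or without F2 ifosfamide pool 2, 4, 5 or 6. Calls in the genome moved too, from 147 higher and 101 lower in the full comparison to 40 higher and 24 lower without control pool 2. Genome-wide calls of the fits with 17, 9 and 7 calls are not given here, so those counts are not read as particular to isolated windows. Of 2399 isolated windows with a p-value in the authors' deposited table, 2 passed 0.05 after adjustment, both higher in F2 ifosfamide, among 206 of 953578 windows (0.0216%), of which 102 were higher and 104 lower.

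One of the 2 windows called here was chr3:36093001-36094000 (3442 counts beside 76 and 2). The authors' deposited edgeR result did not call this window (adjusted p = 0.206). It ranged from 1.84 to 8.96 CPM with a median of 5.34 in F1 control pools, from 1.15 to 4.81 with a median of 2.18 in F1 ifosfamide pools and from 5.23 to 13.2 with a median of 12.3 in F2 ifosfamide pools. F2 ifosfamide pools 3 to 6 stood at 12.0 to 13.2, above every F1 pool, and pools 1 and 2 at 5.23 and 7.89. The log2 fold change of F2 ifosfamide against F1 control was 0.91 (SE 0.14, edgeR adjusted p = 0.00019), not called in DESeq2 or with a minimum count of 30. That of F1 ifosfamide against F1 control was -1.02 (SE 0.18, edgeR adjusted p = 0.00332). The latter call was lost in DESeq2, with a minimum count of 30, and without control pool 6 (-0.84) or F1 ifosfamide pool 3 (-0.86). Between F2 and F1 ifosfamide it was 1.93 (SE 0.16, edgeR adjusted p = 1.5e-15), with no overlap.

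The other window called here, chr7:51607001-51608000 (648 counts beside 55 and 53), was also called in the authors' deposited edgeR result (adjusted p = 0.0451). It held 0.538 to 1.17 CPM in F1 control and 1.26 to 1.81 in F2 ifosfamide pools, which did not overlap. F1 ifosfamide pools held 0.840 to 1.39 CPM and overlapped both. Its log2 fold change of 0.73 (SE 0.16, edgeR adjusted p = 0.042) lost its call in 11 of 18 alternative fits, among them those without control pool 1, 2, 5 or 6 or without F2 ifosfamide pool 2, 3, 4, 5 or 6, with values of 0.62 to 0.80 in those 9.

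F2 and F1 ifosfamide sperm were compared within the lineage. This comparison shares its F1 ifosfamide pools with the first. Of 2398 tested isolated windows 377 were higher in F2 pools (15.7%) and 22 lower (0.917%), and of all 1062540 tested windows 1.18% were higher and 0.836% lower. The 22 lower windows are thus close to the background share. The called windows were higher by a median of 0.65 on the log2 scale. All 6 F2 pools lay above all 6 F1 ifosfamide pools in 152 isolated windows (6.34%) and below them in 9 (0.375%), against 0.696% and 0.617% of all tested windows. The median log2 fold change was 0.18 over isolated windows and -0.01 over all tested windows. The total of 399 calls was 256 without F1 ifosfamide pool 3 or without F2 ifosfamide pool 3, and 645 without F1 ifosfamide pools 1 and 2 together. Of the windows called higher in the genome, isolated windows were 377 of 12485 in the full comparison, 244 of 5212 and 247 of 5615 without either pool 3, and 576 of 32330 without F1 ifosfamide pools 1 and 2.

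The share called higher also rose with height, from 31 of 1080 windows of 200 to 499 counts (2.87%) and 75 of 736 of 500 to 999 counts (10.2%) to 210 of 489 of 1000 to 4999 counts (42.9%) and 61 of 93 at 5000 or more (65.6%). At 5000 or more, 68 of 262 windows that were 10 times only 1 neighbour were called higher (26.0%), and 32 of the 484 remaining windows (6.61%) were higher and 29 lower. Among isolated windows of at least 1000 counts, 263 of the 520 with no empty neighbour were higher (50.6%), and 8 of the 44 with 1 empty neighbour were. Of the 18 with a pair of empty neighbours none was called in edgeR or DESeq2, and at an unadjusted p below 0.05 3 were higher and 1 lower. Without F1 ifosfamide pools 1 and 2 the calls higher were 334, 10 and 2 in the same order, and 3 of the 18 were called lower.

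**Figure D5:**
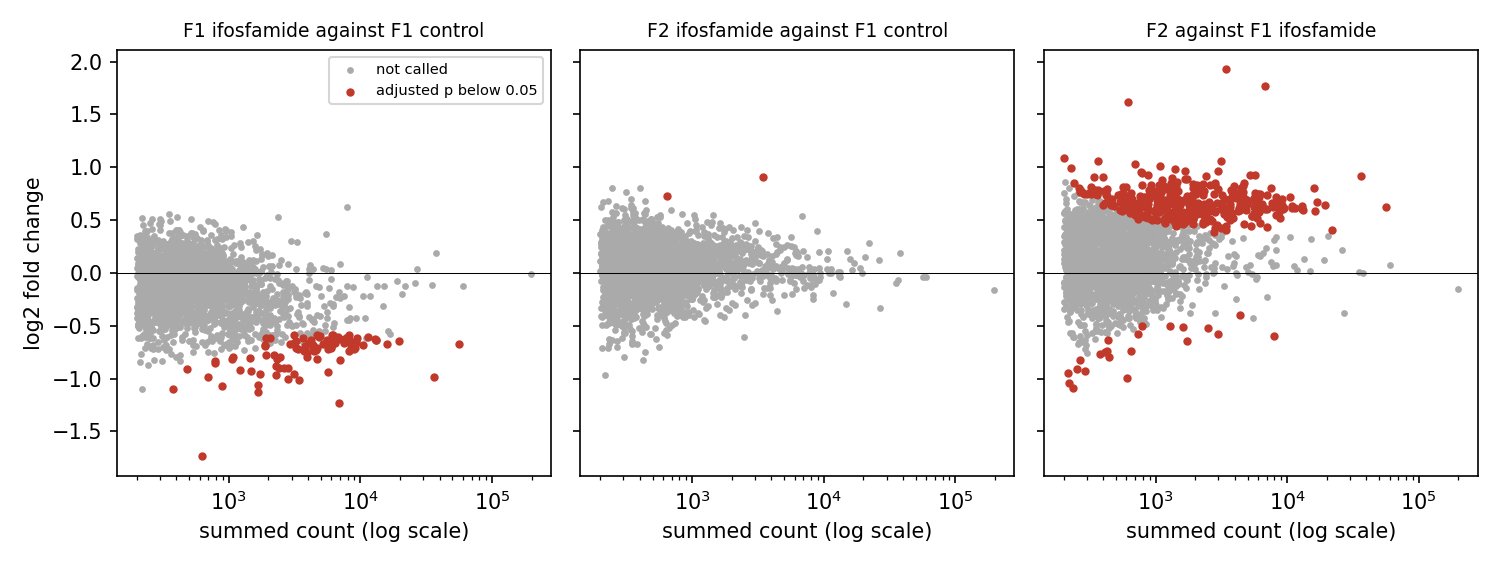
Log2 fold change (y axis) against summed count on a log scale (x axis) for the tested isolated windows in 3 comparisons, with windows of an adjusted p below 0.05 in red. Red points lie below 0 in F1 ifosfamide against F1 control (96), are 2 in F2 ifosfamide against F1 control, and lie mostly above 0 in F2 against F1 ifosfamide (377 of 399).

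Of the 8 windows higher in F2 with the smallest p, 6 are described above. The others are chr16:59609001-59610000 (2982 counts beside 159 and 270) and chr9:45398001-45399000 (5225 counts beside 68 and 102). The first held 3.03 to 4.67 CPM in F1 ifosfamide and 5.37 to 9.45 in F2 ifosfamide pools, without overlap, and 3.29 to 8.08 in F1 control pools, which overlapped both. Its log2 fold change was 0.96 (SE 0.12, edgeR adjusted p = 2.68e-07). The second held 4.86 to 8.96 and 9.47 to 14.4 CPM, without overlap, and 5.64 to 13.4 in F1 control pools. It differed by a log2 fold change of 0.93 (SE 0.12, edgeR adjusted p = 3.29e-07). Against F1 control it was -0.67 in F1 ifosfamide (SE 0.14, edgeR adjusted p = 0.0183), a call lost without any one of control pools 3, 4 and 6 or F1 ifosfamide pools 3 and 6 (-0.57 to -0.62).

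The windows lower in F2 were mostly small, with a median total of 525 against 1680 for those higher. The one with the smallest p, chr5:17214001-17215000 (608 counts beside 56 and 44), held 0.615 to 1.44 CPM in F1 control, 1.08 to 2.36 in F1 ifosfamide and 0.574 to 0.948 in F2 ifosfamide pools. Both ifosfamide groups were separate and the control pools spanned both. F2 against F1 ifosfamide gave a log2 fold change of -0.99 (SE 0.17, edgeR adjusted p = 0.000183).

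At chr1:54233001-54234000 (1736 counts) F1 ifosfamide pools held 2.89 to 4.32 CPM and F2 pools 2.02 to 2.68, and at chr15:45368001-45369000 (2978 counts) they held 5.38 to 8.35 and 3.83 to 4.79. Their log2 fold changes were -0.65 (SE 0.12) and -0.58 (SE 0.12), with edgeR adjusted p of 0.000979 and 0.00176. In both windows control pools 4 and 6 were the lowest of the F1 control group, the reverse of their place in the windows above. Control pools 4 and 6 were therefore not high in every isolated window.

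The other 5 of the 8 were chr3:56027001-56028000, chr14:46329001-46330000, chr5:108970001-108971000, chr3:20731001-20732000 and chr6:55345001-55346000, with log2 fold changes of -0.73, -0.60, -1.08, -0.52 and -1.04. The groups overlapped in the windows on chromosome 14 and at chr3:20731001-20732000. The window at chr14:46329001-46330000 (7886 counts beside 0 and 569) was not called in DESeq2, and that at chr6:55345001-55346000 (219 counts) lost its call without F2 ifosfamide pool 3.

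A few isolated windows on different chromosomes had nearly the same counts in all 18 libraries. Among 252 isolated windows of at least 2000 counts, 91 of 31626 pairs had totals within a factor of 1.05 and neighbour totals within a factor of 1.25 of each other, in the same or the mirrored order, and 8 of these pairs lay on 1 chromosome. The closest pair was chr8:92872001-92873000, with 4875 counts beside 276 and 148, and chr18:3771001-3772000, with 4819 counts beside 279 and 143. Over the 18 pools they differed by 0.321 in chi-square per degree of freedom, less than the 1 that counting alone gives. The pair chr9:46937001-46938000 (5615 counts beside 89 and 215) and chr16:26682001-26683000 (5632 counts beside 198 and 111, in mirrored order) gave 0.375. The pair chr14:8892001-8893000 (2294 counts beside 84 and 224) and chr19:48070001-48071000 (2335 counts beside 233 and 77) gave 0.530. In all, 4 of the 91 pairs were below 1. The pairs were picked for their likeness, and whether the windows of a pair share their sequence was not tested.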

How the data were processed

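The deposited tables give the authors' read counts per 1 kb window (Rnor_6.0) and library, per the file headers, as whole numbers without normalization. The submitters' processing notes name edgeR, Bowtie2, SAMtools, FastQC and Trimmomatic, with versions and settings not given in the sources used here, so the treatment of reads that map to several places is not known. RPKM values deposited by the authors served only to recover the number of reads. Mean count signal deposited by the authors per group was not used. The authors' deposited log2 fold changes and p-values were only set beside the fit made here, with their sign turned to ifosfamide over control.

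The tables were joined by window, and the 6 control columns were identical in both. Each comparison of 6 with 6 pools was fitted over all windows kept by a minimum count of 10 with edgeR 4.0.16 in R 4.3.3 (TMM scaling, two-sided quasi-likelihood test, Benjamini-Hochberg adjustment over all windows). An adjusted p below 0.05 is a call. The fits were tested on simulated data, where they recovered 20% to 22% of 1.5-fold and 78% to 80% of 2-fold changes in isolated windows. Windows were drawn independently there, without variation shared between windows. The simulation therefore does not show how the calls behave under such shared variation. Of the 2400 isolated windows, 2399, 2379 and 2398 passed the filter in the 3 comparisons. Levels are CPM after TMM scaling of all 18 libraries, and log2 levels add 0.1 CPM.

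Named windows are the 5 with the highest totals and the 5 with the highest ratios, up to 8 called per comparison and direction by smallest p, the 5 with the highest and the 5 with the lowest dispersion, and those at the edges of the rule. The members, lists and rules were chosen with earlier results of these data known. The main fits did not pair pools by number, and correlations between same-numbered pools were -0.151 to 0.0737. Alternatives were DESeq2 1.42.0, library totals, other filters, 1 fit of 18 pools, a replicate block, windows per read as a covariate, summing or leaving out F1 ifosfamide pools 1 and 2, leaving out each pool, and other limits of the rule.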

Additional observations from a re-analysis of the deposited data

Results flagged for a closer look

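The highest and lowest pool of each group were compared with the group's range by Dixon's criterion for 6 values in 114 groups of named windows, of which chance flags about 1 in 20, and 3 were flagged. At chr7:99152001-99153000 F2 ifosfamide pool 2 held 7.86 CPM and the next pool 5.91. At chr5:108970001-108971000 F1 ifosfamide pool 5 held 0.919 CPM and the next 0.545. At chr9:7503001-7504000 F1 ifosfamide pool 5 held 0.679 CPM and the next 0.515.

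The window chr3:36093001-36094000 was called in edgeR in opposite directions against the shared F1 control pools in the 2 ifosfamide generations. Both ifosfamide groups overlapped the control pools. Neither of these calls held in DESeq2, with a minimum count of 30 or in the authors' deposited result. The test of F2 against F1 ifosfamide, which is the test of that difference, gave a log2 fold change of 1.93 (edgeR adjusted p = 1.5e-15), with all 6 F2 pools above all 6 F1 ifosfamide pools.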

How the results depend on the processing

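Of the 96 calls in F1 ifosfamide against F1 control, 53 were left with a minimum count of 30, and 272 windows were called without F1 ifosfamide pools 1 and 2, an alternative chosen after seeing the data. With the minimum count of 30 the windows called lower in the genome went from 558 to 186. Leaving out each pool in turn gave 24 to 194 calls in F1 ifosfamide against F1 control, 1 to 17 in F2 ifosfamide against F1 control and 256 to 522 in F2 against F1 ifosfamide, where 645 were called without F1 ifosfamide pools 1 and 2. In F2 ifosfamide against F1 control the 2 calls became 0 in DESeq2, 4 with no filter on low counts, 0 with a minimum count of 30 and 1 in 1 fit of 18 pools. Over the genome these fits called, in the same order, 20, 208, 31 and 35 windows higher and 7, 112, 24 and 11 lower, against 147 and 101. The median log2 fold change of isolated windows was -0.0011 without F1 control pool 1 and 0.0701 without pool 4. With a minimum total of 500 the rule gave 1318 windows, with 5 times each neighbour 15782 and with 20 times 513. With library totals as the only scaling 94, 2 and 400 windows were called in the 3 comparisons, and no window called in any alternative had the opposite direction to its call as reported. Fits that leave out a pool kept the scaling, windows and dispersion trend of the full comparison. The part of depth in the few calls of windows under 1000 counts and the number of copies behind a window were not tested. DESeq2 gave no adjusted p for 1791, 1392 and 674 isolated windows in the 3 comparisons.

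The labels do not say whether the pool numbers pair the pools. Every same-number correlation was below 0.1, but in F2 ifosfamide against F1 control pools 1 and 4 correlated best with their own number. With a replicate block on the pool number, 54 of the 96 calls in F1 ifosfamide against F1 control were left, 10 windows were called in F2 ifosfamide against F1 control and 336 in F2 against F1 ifosfamide. Over the genome the block gave 44 higher and 336 lower in the first comparison, against 51 and 558 without it. In the second it gave 362 higher and 257 lower, against 147 and 101.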
